A study of Mus musculus with 6 samples.

Results

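Levels of 10 genes of theca and interstitial steroid synthesis were followed in 6 pooled libraries of mouse ovary at postnatal day 14. The 10 genes were taken by symbol from a table of 37924 genes: Lhcgr, Insl3, Scarb1, Star, Cyp11a1, Fdx1, Fdxr, Hsd3b1, Hsd3b6 and Cyp17a1. All 10 were found once and passed the filter on low values, as did 14934 genes in all. The cKO group held 3 pools of ovaries from mice with 2 floxed copies of the target gene and a Gdf9iCre+ transgene, and the control group 3 pools from mice with the same floxed copies and no Cre. All mice were of the strain C57BL/6J/129S7/SvEvBrd. Each pool held 1 ovary from each of 3 mice. The Cre transgene is driven by the promoter of Gdf9, a gene of oocytes and not of theca cells. No group with Cre alone was analysed here.

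Theca cells lie outside the basal lamina of a growing follicle and turn cholesterol into androgen, which granulosa cells turn into estrogen. Luteinising hormone acts on its receptor in theca cells and, through cyclic AMP, raises cholesterol import and transcription of the steroid enzymes. The first step, side-chain cleavage of cholesterol, takes place in mitochondria and draws electrons from a short chain of carrier proteins. In the mouse, theca and interstitial cells share these genes, and granulosa cells also express some of them.

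The levels below are FPKM, fragments counted per length of transcript and per sequencing depth, so they compare genes per unit of length. Differences are cKO minus control on log2(FPKM + 1), tested with limma across all 14934 genes and adjusted by the Benjamini-Hochberg method. An adjusted p below 0.05 counted as passing. Estimated depth was 22460000 to 24930000 fragments in cKO and 19590000 to 22670000 fragments in control libraries. Mitochondrially encoded genes took 7.31% to 13.9% of summed FPKM in cKO and 11.9% to 14.2% in control libraries. The summed level of 7 adipose tissue markers was 16.2 to 17.2 FPKM in cKO and 14.7, 15.3 and 40.4 FPKM in control 1, 2 and 3. Of the 5 adipose markers tested 1, Plin1, rose in cKO, and the other 4 had negative log2 changes, with a median of -0.59 over the list. At an unadjusted p below 0.05, 2 of these 4, Fabp4 and Cfd, were lower. Over all genes tested 2.24% were called higher, and 9.80% were lower at an unadjusted p below 0.05. Without Plin1 the other 6 summed to 3.37, 5.64 and 4.47 FPKM in cKO 1 to 3 and 8.49, 8.47 and 35.5 FPKM in control 1 to 3. Lep was at 0 in cKO 1, cKO 3 and control 1. The part of these values in the members' levels was not tested. In bulk ovary RNA, fewer cells of a type and less RNA per cell cannot be told apart.

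No member passed the test. In limma 0 of 10 members were called higher and 0 lower, against 2.24% of all genes tested called higher and 2.09% called lower, or 4.33% in either direction. Without adjustment 2 members, Cyp11a1 and Lhcgr, had a p below 0.05, both higher in cKO, where 14.5% of all genes tested had such a p and were higher and 9.80% had one and were lower. That count depended on single libraries: it was 5 without control 1, 3 without cKO 3, 1 without cKO 2, control 2 or control 3, and 0 without cKO 1. Centred on reference genes it was 5. The share of all genes with such a p was not computed for these fits. Their counts are therefore not read as a result about the members. In 0 of the 10 members did the cKO and control values separate without overlap, against 30.0% of all genes tested. Of the members, 8 had a positive log2 change, as had 58.5% of all genes tested. The members' count was 9 with quantile normalisation and 10 centred on reference genes. The share of all genes with a positive change was not computed for those scalings. Their median log2 change over all genes was 0.0029 with quantile normalisation and 0.136 centred on reference genes. In the main fit the median log2 change of the members was 0.55, and that of all genes tested was 0.05. For most members the libraries of 1 genotype lay far apart, and the libraries that were high were not the same for every gene.

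**Figure D1:**
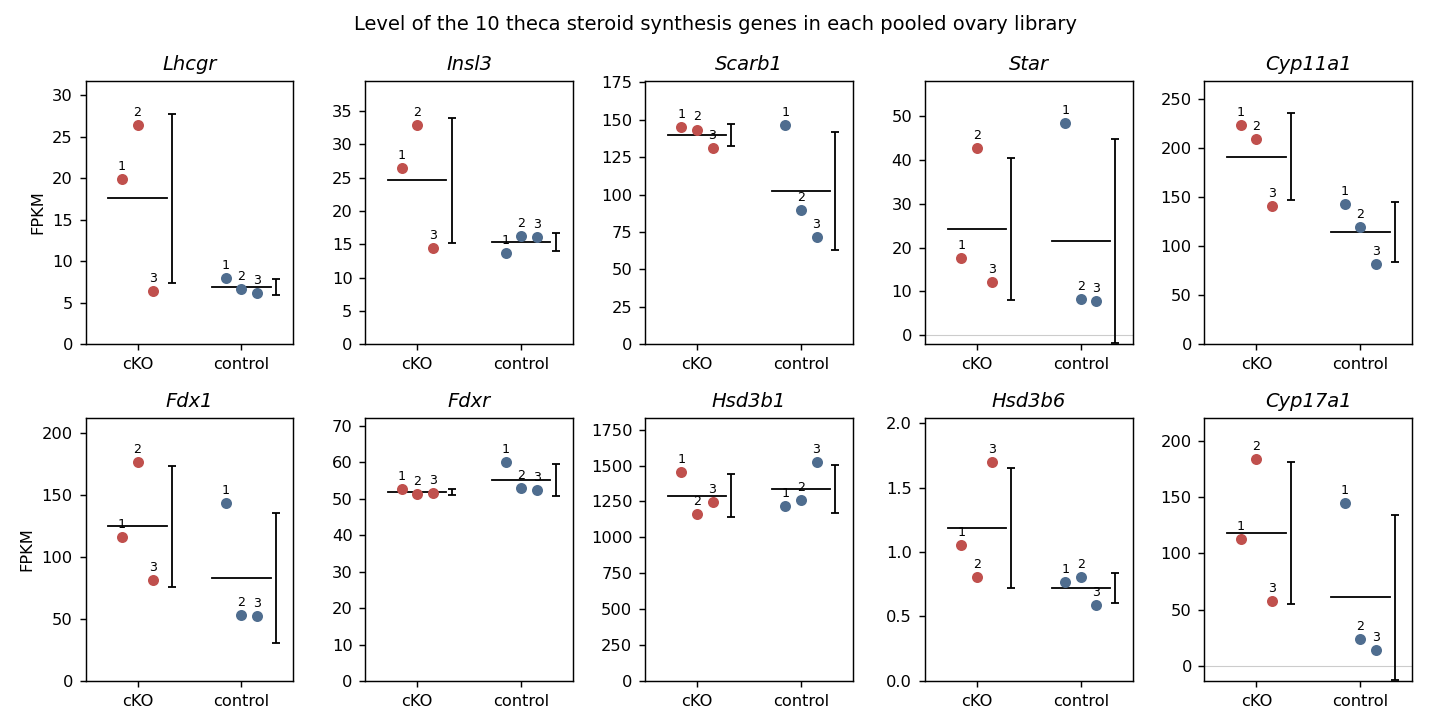
FPKM (vertical axes, each from 0 or just below it) of the 10 members in each cKO and control library, with the library number beside each point. Horizontal bars are group means and the whiskers beside them are ± 1 SD (n = 3). In Cyp17a1, Star and Fdx1, control 1 stands beside the higher cKO libraries, and in Lhcgr and Insl3, cKO 3 stands beside the controls.

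Lhcgr encodes the receptor for luteinising hormone. Its gene lies on the minus strand of chromosome 17 at 88716481 to 88791990 (mm10). It had 19.9, 26.4 and 6.44 FPKM in cKO 1 to 3, against 7.98, 6.63 and 6.14 FPKM in control 1 to 3. The 3 controls and cKO 3 were within a narrow band, and cKO 1 and cKO 2 were well above all of them. Group levels were 17.6 ± 10.2 FPKM in cKO and 6.92 ± 0.955 FPKM in control (SD, n = 3). The log2 change was 1.04 with a standard error of 0.43, a 95% interval of 0.04 to 2.04 and an adjusted p of 0.193.

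Insl3 encodes insulin-like peptide 3, a hormone of theca cells and of testicular Leydig cells. It had 26.5, 32.9 and 14.4 FPKM in cKO 1 to 3, against 13.7, 16.2 and 16.1 FPKM in control 1 to 3. The same pair of cKO libraries was high as for Lhcgr, and cKO 3 was between control 1 and control 3. Insl3 differed by 0.58 on the log2 scale (standard error 0.26, 95% interval -0.03 to 1.19, adjusted p 0.228). Insl3 lies on the plus strand of chromosome 8 at 71689214 to 71690575 and shares 404 exon bases with the kinase gene Jak3 on the same strand. That is 64.9% of the exon length of Insl3. Jak3 itself was listed at 1.33 to 1.57 FPKM in cKO and 1.32 to 1.74 FPKM in control libraries, well under Insl3.

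Both of these genes depend on 1 library. With cKO 3 left out, Lhcgr had a log2 change of 1.60 at an adjusted p of 0.0266 and Insl3 one of 0.91 at an adjusted p of 0.0384, in a fit that called 1.40% of all genes tested higher. With cKO 2 left out they were at 0.66 and 0.34, with adjusted p-values of 0.377 and 0.431. The level of Insl3 per unit of Lhcgr was 1.33, 1.25 and 2.24 in cKO 1 to 3 and 1.72, 2.44 and 2.62 in control 1 to 3.

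Scarb1 encodes the receptor that takes up cholesterol esters from high-density lipoprotein. It had 145, 143 and 131 FPKM in cKO 1 to 3, against 147, 89.5 and 71.4 FPKM in control 1 to 3. The cKO libraries were close together, control 1 was level with them, and control 2 and control 3 were below all the others. Scarb1 differed by 0.51 on the log2 scale (standard error 0.23, 95% interval -0.03 to 1.05, adjusted p 0.231). Without 1 library this ran from 0.29, without control 3, to 0.80, without control 1.

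Star encodes the protein that moves cholesterol to the inner mitochondrial membrane, the acutely regulated step of steroid synthesis. It had 17.7, 42.7 and 12.1 FPKM in cKO 1 to 3, against 48.4, 8.23 and 7.69 FPKM in control 1 to 3. The highest library of all was a control, and the other 2 controls were the lowest. The means were close, 24.2 ± 16.3 FPKM in cKO and 21.4 ± 23.3 FPKM in control (SD, n = 3). The log2 change was 0.48 with a standard error of 0.71, and its 95% interval of -1.17 to 2.13 is a fold of 0.44 to 4.38 on that scale, at an adjusted p of 0.721. Without 1 library the log2 change ran from -0.0139, without cKO 2, to 1.30, without control 1.

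Cyp11a1 encodes the side-chain cleavage enzyme, which makes pregnenolone from cholesterol. It had 224, 209.5 and 142 FPKM in cKO 1 to 3, against 143, 119.8 and 82.0 FPKM in control 1 to 3. The groups overlapped only in that cKO 3 was just under control 1. This was the member with the smallest p. Its level was 192 ± 44.0 FPKM in cKO and 115 ± 30.7 FPKM in control (SD, n = 3). It differed by 0.74 on the log2 scale (standard error 0.24, 95% interval 0.19 to 1.29, adjusted p 0.113). It shares 145 exon bases, 3.02% of its exon length, with the long noncoding gene Gm17322, which was at or under 1.04 FPKM in every library.

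Fdx1 and Fdxr encode ferredoxin and ferredoxin reductase, which pass electrons to the mitochondrial steroid enzymes. Fdx1 had 116, 177 and 81.2 FPKM in cKO 1 to 3, against 144, 53.1 and 52.6 FPKM in control 1 to 3. Fdxr had 52.8, 51.4 and 51.6 FPKM in cKO 1 to 3, against 60.2, 53.0 and 52.5 FPKM in control 1 to 3. The carrier varied several-fold between libraries and its reductase hardly at all. Fdx1 per unit of Fdxr was thus 2.19, 3.45 and 1.57 in cKO 1 to 3 and 2.39, 1.00 and 1.00 in control 1 to 3. The log2 change was 0.67 for Fdx1 (standard error 0.42, 95% interval -0.31 to 1.66, adjusted p 0.375). Without 1 library the change of Fdx1 ran from 0.39, without cKO 2, to 1.15, without control 1, where its adjusted p was 0.169. For Fdxr it was -0.09 (standard error 0.08, 95% interval -0.27 to 0.10, adjusted p 0.546). Both Fdx1 and Fdxr also serve pathways outside steroid synthesis.

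Cyp17a1 encodes the hydroxylase and lyase that commits steroids to androgen, and in the ovary it marks theca and interstitial cells. It had 113, 184 and 58.0 FPKM in cKO 1 to 3, against 145, 24.3 and 14.1 FPKM in control 1 to 3. Control 1 was the second highest of the 6 libraries, and the other 2 controls were the lowest. The highest control was 10.3 times the lowest, and the highest cKO library 3.16 times the lowest. The log2 change of 1.49 was the largest of any member, but its standard error was 0.80, its 95% interval -0.38 to 3.36 and its adjusted p 0.303. Without 1 library it ran from 0.82, without control 3, to 2.46, without control 1. Cyp17a1 lies on the minus strand of chromosome 19 at 46667165 to 46673172.

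Hsd3b1 encodes the 3-beta-hydroxysteroid dehydrogenase of ovary and adrenal. It had 1454, 1165 and 1249 FPKM in cKO 1 to 3, against 1219.9, 1258 and 1528 FPKM in control 1 to 3. It was the most abundant member in every library and stood above 99.6% of all genes tested by mean level. The groups overlapped over most of their range, at 1290 ± 149 FPKM in cKO and 1335 ± 168 FPKM in control (SD, n = 3). The log2 change was -0.05 with a standard error of 0.13, and its 95% interval of -0.35 to 0.25 is a fold of 0.79 to 1.19, at an adjusted p of 0.849. The control with the highest Hsd3b1, control 3, had the lowest Cyp17a1, Star and Scarb1. Cyp17a1 per 1 unit of Hsd3b1 was 0.078, 0.157 and 0.046 in cKO 1 to 3 and 0.119, 0.019 and 0.0092 in control 1 to 3.

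Hsd3b6 is the paralog of Hsd3b1 that is known in mouse from Leydig cells and the adrenal zona glomerulosa. It had 1.06, 0.80 and 1.70 FPKM in cKO 1 to 3, against 0.77, 0.81 and 0.59 FPKM in control 1 to 3. That was 0.07%, 0.07% and 0.14% of Hsd3b1 in cKO and 0.06%, 0.06% and 0.04% in control libraries. At the estimated depth these levels stand for about 32.5 to 76.4 fragments in cKO and 20.7 to 31.4 fragments in control libraries. The log2 change was 0.33 (standard error 0.18, 95% interval -0.08 to 0.74, adjusted p 0.305), and only cKO 3 and cKO 1 were above all controls.

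The sequences of the pair are shown because fragments of Hsd3b1 could be counted for Hsd3b6 where they are identical. Both lie on the minus strand of chromosome 3, Hsd3b6 at 98805504 to 98814443 and Hsd3b1 at 98852194 to 98859794. Their coding sequences in GENCODE M21 have the same length, 1119 bases without the stop codon, and differ at 112 positions, which makes them 90.0% identical. Their proteins differ at 60 of 373 residues. The longest stretch without a difference covers 72 bases, from coding base 250 to 321, and is the same in both genes:
Hsd3b1 and Hsd3b6: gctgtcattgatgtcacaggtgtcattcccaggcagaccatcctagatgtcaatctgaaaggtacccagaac
The 60 bases with the most differences, 15 of them, run from coding base 94 to 153. Capitals mark the bases at which the genes differ:
Hsd3b1: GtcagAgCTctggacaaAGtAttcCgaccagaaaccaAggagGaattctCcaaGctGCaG
Hsd3b6: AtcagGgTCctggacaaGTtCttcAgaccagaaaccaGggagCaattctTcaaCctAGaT
Of all stretches of 50 bases in the transcripts of Hsd3b6, 2.11% also occur in those of Hsd3b1, 13.2% in Hsd3b2 and 12.2% in Hsd3b3. Hsd3b2, Hsd3b3, Hsd3b4 and Hsd3b5 were listed at 0.33 FPKM or less in each cKO library and at 0.21 FPKM or less in each control library. How the deposited values divided fragments between these genes is not given in the sources used here. The level of Hsd3b6 is therefore uncertain, and at its size beside Hsd3b1 a small share of misplaced fragments would change it. Hsd3b7, the family member of bile acid synthesis, had 16.1 to 16.6 FPKM in cKO and 12.8 to 14.6 FPKM in control libraries, at an adjusted p of 0.112. It shares 62.0% of its exon length with Gm49388 on the same strand, a gene without values of its own in the deposited data. Whether that overlap affects the level of Hsd3b7 was not tested, so that level stays uncertain.

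By mean level in cKO the order was Hsd3b1, Cyp11a1, Scarb1, Fdx1, Cyp17a1, Fdxr, Insl3, Star, Lhcgr and Hsd3b6. Hsd3b1 and Hsd3b6 stood clear of their neighbours at the ends of that order, and so did Fdxr from the genes on either side. The ranges of Cyp11a1, Scarb1, Fdx1 and Cyp17a1 overlapped each with the next, and so did those of Insl3, Star and Lhcgr. In control the order was the same except that Star came before Insl3. There Hsd3b1 was again clear at the top, Star and Insl3 overlapped, Insl3, Lhcgr and Hsd3b6 were clear of one another, and the ranges from Cyp11a1 down to Fdxr again overlapped each with the next. Beyond neighbours in control, Star at 7.69 to 48.4 FPKM also overlapped Lhcgr at 6.14 to 7.98 FPKM. Cyp17a1, at 14.1 to 145 FPKM in control, also overlapped Star and Insl3.

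**Figure D2:**
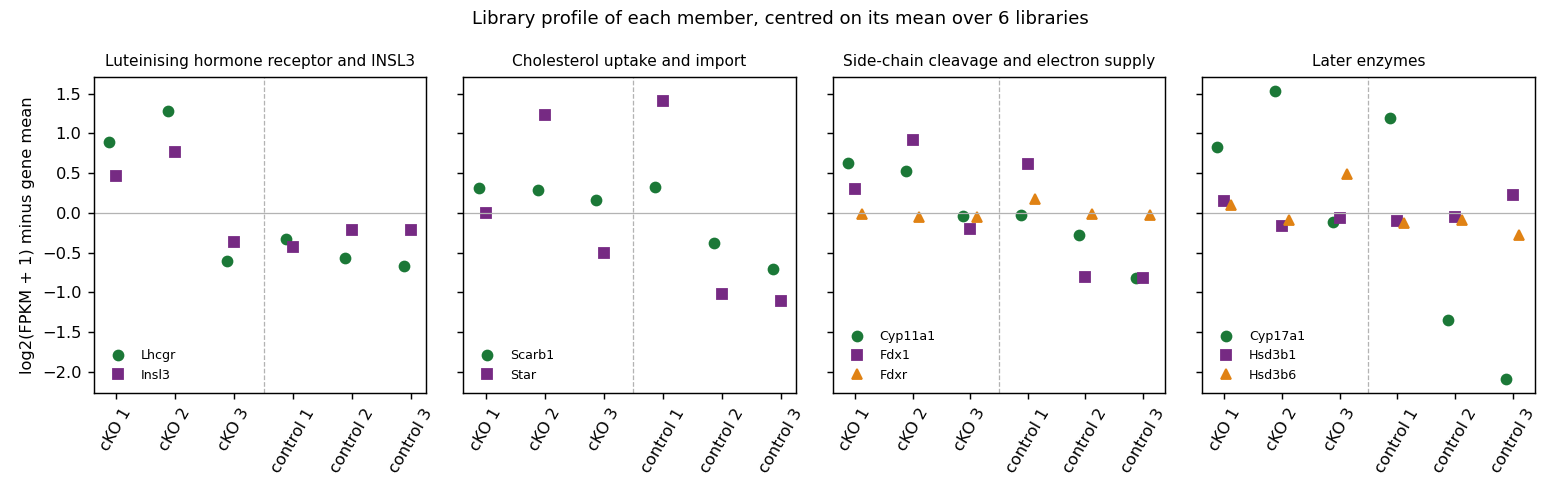
log2(FPKM + 1) of each member in the 6 libraries, minus that gene's mean over the 6 libraries, in 4 panels by role. Points of Cyp17a1, Star and Fdx1 are high in cKO 2 and control 1, those of Lhcgr and Insl3 in cKO 1 and cKO 2, and those of Hsd3b1 and Fdxr stay near 0.

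The spread between pools of 1 genotype was itself large for these genes. The residual SD of log2 values within groups was 1.35 for Cyp17a1, more than in 99.4% of all genes tested, and 1.19 for Star, more than in 99.1%. For Lhcgr and Fdx1 it was 0.71 and 0.70, each more than in 98.1% of genes. Insl3, Cyp11a1 and Scarb1 were above 95.3%, 93.9% and 93.7% of genes. In Fdxr the spread was 0.08, with 13.7% of genes below it, and in Hsd3b1 it was 0.17, with 64.8% below it.

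Over the 6 libraries Cyp17a1 had the widest range of any member, 3.61 on the log2 scale. Likeness to it was measured as the root mean square difference of centred log2(FPKM + 1) values over the 6 libraries. Star was nearest among the members, at 0.58, followed by Fdx1 at 0.69, Lhcgr at 0.93, Cyp11a1 at 0.94 and Scarb1 at 0.95. Insl3 lay at 1.17 and Hsd3b6, Fdxr and Hsd3b1 at 1.30, 1.31 and 1.41. The values were not scaled by their spread. Genes that vary little, such as Fdxr and Hsd3b1, therefore lie far from Cyp17a1 whatever their order of libraries. Among 9375 named genes outside the members with a mean of at least 5 FPKM, the nearest was Fads2, which encodes a fatty acid desaturase, at 0.71.

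Fads2 had 104.5, 118 and 63.4 FPKM in cKO 1 to 3, against 57.6, 32.4 and 27.2 FPKM in control 1 to 3, with an adjusted p of 0.0637. Next were Srcap, a chromatin remodeller gene, at 0.87, and Ass1, a gene of arginine synthesis, at 0.88. Both rose in cKO, Srcap by 1.24 and Ass1 by 1.37 on the log2 scale, at adjusted p-values of 0.0374 and 0.032. Over all genes tested 2.24% were called higher. These genes were picked for likeness to Cyp17a1 in the same 6 libraries, and Cyp17a1 itself had a log2 change of 1.49. A rise in cKO therefore follows in part from the choice and is not read as a separate result. By this distance Star and Fdx1 were nearer to Cyp17a1 than any of the 9375 genes. In Fads2, Srcap and Ass1 control 1 was below all 3 cKO libraries. Of the next genes in that order, named after their values were seen, Fam129a, Alas1 and Abhd2 had a high control 1, as Cyp17a1, Star and Fdx1 did. Control 1 had 7.84 FPKM of Fam129a, the highest of the 6 libraries, and its Alas1 and Abhd2 were second only to cKO 2. The other genes up to rank 10 were Tnrc18, Col4a4, Foxn3 and Ece1. In Tnrc18, Col4a4 and Foxn3 control 1 was below all 3 cKO libraries. For Ece1 it was just above cKO 3, at 147.3 against 145.2 FPKM.

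The residual SD within groups was larger in Lhcgr and Fdx1 than in Hsd3b1, in Lhcgr through its cKO pools. The windows of 250 bases before the transcription start are shown for these 3 genes. They come from a table of RefSeq starts on GRCm38.p6, in which 7 of the 10 members were matched. Windows of Star, Cyp17a1 and Scarb1 were not used here. All 3 windows are given 5′ to 3′ along the gene, which lies on the minus strand. The searched motifs were AGGTCA, a half-site of nuclear receptors, and AAGGNCA, a longer form bound by the steroid gene regulator NR5A1, on both strands. A match of the longer motif with T at N also holds the shorter one. Capitals mark a match.
Lhcgr, chr17:88792015-88792264: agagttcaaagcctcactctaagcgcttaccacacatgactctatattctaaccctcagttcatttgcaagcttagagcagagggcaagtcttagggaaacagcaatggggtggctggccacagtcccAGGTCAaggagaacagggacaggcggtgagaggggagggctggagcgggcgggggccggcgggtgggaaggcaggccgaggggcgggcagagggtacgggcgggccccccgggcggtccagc
Fdx1, chr9:51963603-51963852: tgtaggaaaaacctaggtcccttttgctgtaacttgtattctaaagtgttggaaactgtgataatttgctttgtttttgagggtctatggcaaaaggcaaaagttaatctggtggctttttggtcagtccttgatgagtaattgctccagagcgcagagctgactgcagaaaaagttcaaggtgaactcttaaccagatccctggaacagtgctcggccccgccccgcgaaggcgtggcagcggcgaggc
Hsd3b1, chr3:98859795-98860044: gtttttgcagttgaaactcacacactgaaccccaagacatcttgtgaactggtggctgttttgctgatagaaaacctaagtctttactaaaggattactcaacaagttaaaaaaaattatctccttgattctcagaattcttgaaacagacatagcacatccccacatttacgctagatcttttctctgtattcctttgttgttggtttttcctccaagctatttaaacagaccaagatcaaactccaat
Lhcgr holds AGGTCA once, beginning 122 bases before the start, and the windows of Fdx1 and Hsd3b1 hold neither motif. Of the other members matched, Cyp11a1 holds AGGTCA once, 28 bases before 1 of its 2 RefSeq starts, and Insl3, Fdxr and Hsd3b6 hold neither motif. Of 32851 RefSeq windows of this length, 14.0% hold AGGTCA and 17.5% hold AAGGNCA. The share of G and C is 63.2% in the window of Lhcgr, 48.0% in that of Fdx1 and 36.4% in that of Hsd3b1.

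**Figure D3:**
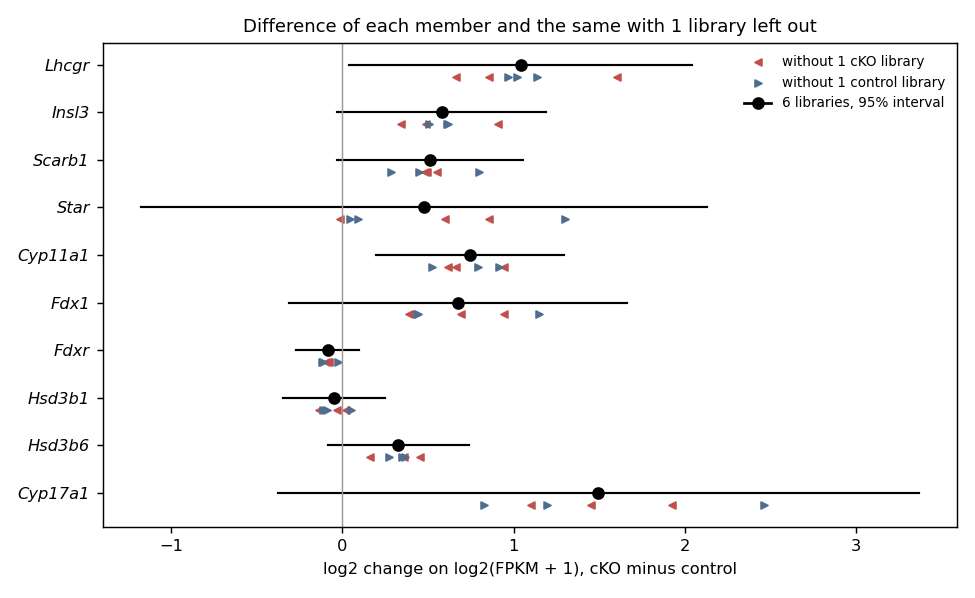
log2 change of each member on log2(FPKM + 1), cKO minus control. Black points and lines are the fit of 6 libraries with its 95% interval, left-pointing marks leave out 1 cKO library and right-pointing marks 1 control library. Intervals of Cyp17a1 and Star are the widest and those of Fdxr and Hsd3b1 the narrowest.

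Other genes of the pathway gave few calls. A list of later steroid enzymes and their helpers, some of which have other roles too, had 15 genes in the table. Of these, 12 passed the filter on low values. Among these 12, 1 fell and 0 rose, 4 were higher and 1 lower at an unadjusted p below 0.05, and the median log2 change was 0.13. Over all genes tested 2.09% fell and 2.24% rose, and 14.5% were higher and 9.80% lower at an unadjusted p below 0.05. The 1 that fell was Hsd17b1, which makes estradiol from estrone in granulosa cells. It had 92.3, 77.6 and 115 FPKM in cKO 1 to 3, against 294, 246 and 198 FPKM in control 1 to 3. All cKO libraries were below all controls, and the difference on the log2 scale was -1.36 (standard error 0.18, adjusted p 0.0175).

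Of 12 regulators of steroid genes 0 passed in either direction, with a median log2 change of 0.02. At an unadjusted p below 0.05 there were 2 higher and 2 lower, against 14.5% and 9.80% of all genes tested. The 3 most abundant regulators were Prkar1a, a regulatory subunit of the cyclic AMP kinase, and the transcription factor genes Gata4 and Nr5a2. Gata4 measured 131 ± 22.9 FPKM in cKO and 99.0 ± 13.0 FPKM in control (SD, n = 3), at an adjusted p of 0.151. Nr5a2 measured 82.4 ± 6.14 FPKM in cKO and 108 ± 10.6 FPKM in control, at an adjusted p of 0.0758. Prkar1a measured 129 ± 5.58 FPKM in cKO and 122 ± 10.5 FPKM in control.

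Of 12 genes of cholesterol supply 0 passed, 3 were higher and 0 lower at an unadjusted p below 0.05, and the median log2 change was 0.09. For this list and the next, the shares of all genes tested at that p were 14.5% higher and 9.80% lower. Soat1, which stores cholesterol as esters, measured 88.2, 109.9 and 69.7 FPKM in cKO 1 to 3 and 75.2, 71.9 and 78.2 FPKM in control 1 to 3. Npc2 and Tspo, a lysosomal and a mitochondrial cholesterol-binding protein gene, had log2 changes of 0.07 and 0.11. Of 6 measured partners of INSL3 and luteinising hormone signalling 0 passed, with 4 higher and 0 lower at an unadjusted p below 0.05 and a median log2 change of 0.27. Gnas, which encodes the stimulatory G protein subunit, had a log2 change of -0.05, and the arrestin genes Arrb2 and Arrb1 had 0.42 and 0.41 at adjusted p-values of 0.0837 and 0.11. Rxfp2, the receptor gene for INSL3, was listed at 0.33 FPKM or less in both groups.

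**Figure D4:**
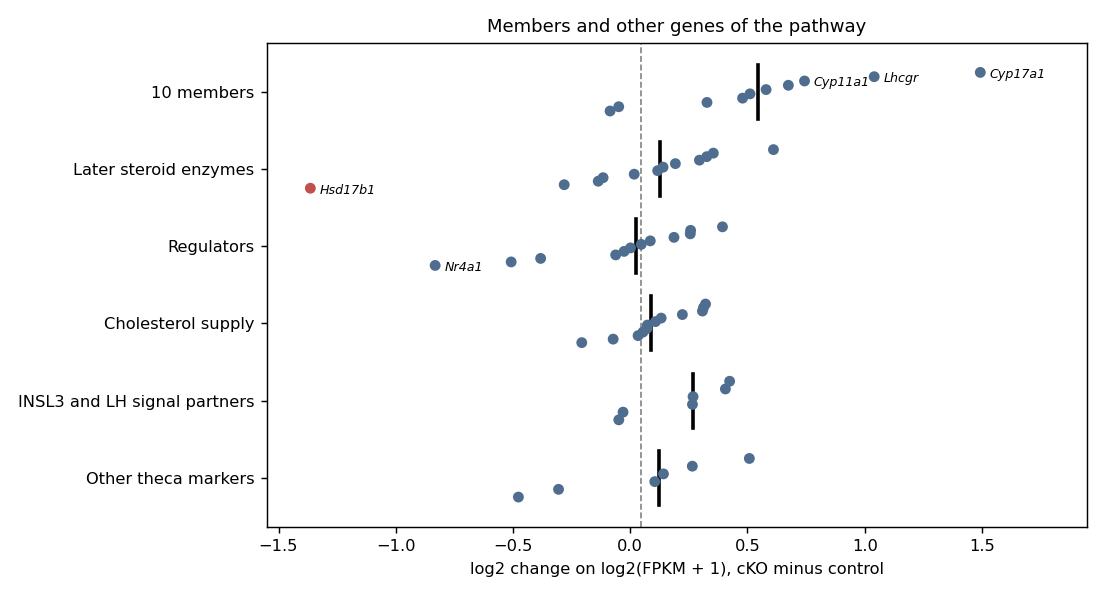
log2 change on log2(FPKM + 1), cKO minus control, for the members and for 5 related lists (1 point a gene, red where the adjusted p is below 0.05). Vertical black bars are list medians and the dashed line is the median of all genes tested. Hsd17b1 at -1.36 is the single red point.

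Markers of ovarian cell types were set beside these values. The 6 other theca markers summed to 592, 495 and 458 FPKM in cKO 1 to 3, against 482, 484 and 455 FPKM in control 1 to 3. Most of each sum was Aldh1a1. It had 418, 302 and 315 FPKM in cKO 1 to 3, against 303, 334 and 315 FPKM in control 1 to 3. The sums without it were not computed. In limma 0 of these 6 markers passed. At an unadjusted p below 0.05, 1 of them, Hhip, was lower, as were 9.80% of all genes tested. Among them Ptch1, the hedgehog receptor gene, had 30.0, 38.9 and 18.9 FPKM in cKO 1 to 3, against 24.9, 19.3 and 15.2 FPKM in control 1 to 3, with an adjusted p of 0.29. Like Lhcgr, it was highest in cKO 2 and cKO 1. Hhip went the other way, with 9.59, 9.38 and 6.41 FPKM in cKO 1 to 3. It had 12.5, 11.3 and 12.2 FPKM in control 1 to 3, at an adjusted p of 0.104. Of the 6 markers 4 had a positive log2 change, while Hhip and Enpep had -0.48 and -0.31. Aldh1a1, Ptch1, Hhip and Enpep were named after their values were seen.

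The 5 granulosa cell markers summed to 1543 to 1894 FPKM in cKO and 2180 to 2747 FPKM in control libraries, with Inha the 1 of 5 that fell. Over all genes tested 2.24% were called higher and 2.09% lower, and 30.0% had groups that did not overlap. Without Inha the other 4 summed to 544, 442 and 478 FPKM in cKO 1 to 3 and 508, 473 and 413 FPKM in control 1 to 3, and the median log2 change of the 5 was -0.08. Named after their values were seen, Foxl2 had a log2 change of 0.43 and Fshr one of -0.66, each with groups that did not overlap, at adjusted p-values of 0.128 and 0.07. The 6 stroma markers summed to 991 to 1358 FPKM in cKO and 747 to 849 FPKM in control libraries, with 2 of 6 higher, Pdgfra and Tcf21. All 6 had a positive log2 change, and in 5 the groups did not overlap. The 8 oocyte markers summed to 1209 to 1862 FPKM in cKO and 916 to 1048 FPKM in control libraries, with 3 of 8 higher, Zp2, Zp3 and Figla. These sums hold Zp2 and Zp3, the most abundant of the 8 by mean level, and were not computed without the genes that passed. Among these 8, 6 had a positive log2 change, and in 4 the groups did not overlap. Bmp15 and Oosp1, named after their values were seen, had log2 changes of -0.67 and -0.05, at adjusted p-values of 0.381 and 0.937 in limma. Of 5 endothelial, 4 immune cell and 5 surface epithelium markers 0 passed, with sums of 77.9 to 99.5, 20.3 to 24.7 and 80.2 to 188 FPKM in cKO and of 78.7 to 82.1, 19.2 to 24.0 and 103 to 112 FPKM in control libraries. No granulosa, stroma, oocyte, endothelial, immune cell or surface epithelium marker was at 0 in any library, and the part of these shifts in the members' values was not tested. The adrenal gene Cyp11b1 was at or under 0.04 FPKM in every library. Mc2r, the receptor gene for adrenocorticotropic hormone, was listed at 0.305, 0.158 and 0.285 FPKM in cKO 1 to 3 and at 0.0628, 0.0659 and 0.289 FPKM in control 1 to 3. Cyp21a1 was listed at 0.22, 0.23 and 0.41 FPKM in cKO 1 to 3 and at 0, 0 and 0.08 FPKM in control 1 to 3.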

How the data were processed

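Transcripts were measured by RNA sequencing in 6 libraries, all from lane 6 of an Illumina instrument, per the labels. The authors deposited 1 value per gene and library. These were taken as FPKM from the name Cufflinks and from the values, since the deposited header names no unit, and the depth and fragment estimates rest on that. Per the submitters' processing notes, the tools were TopHat2 2.0 and Cufflinks 2.0 and the build mm10, without the step each served. The annotation, strand setting and any scaling of libraries to one another: not given in the sources used here. No count model was fitted.

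Genes with a mean of at least 0.5 FPKM entered limma 3.58.1 in R 4.3.3 as linear models with trended empirical Bayes variances, on log2(FPKM + 1), a scale on which changes of low genes look smaller than they are. The script was tested on simulated data. Groups follow the genotype label and library numbers only name the pools. Depth was estimated from low values read as 1 fragment, for genes with 1 transcript, and has no interval. Coordinates and exon overlaps are from GENCODE M21, on the assembly of mm10.

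The members and lists were chosen with earlier results of these data known. Named from each pathway list were passing genes, or else the 3 with the highest mean. From the marker lists, genes that passed were named, and others where the text says so. The floxed gene is not reported here. Alternatives were 2 pseudocounts, 2 filters, 4 scalings, robust eBayes, array weights, each library left out, and cKO 1 alone against the controls.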

Additional observations from a re-analysis of the deposited data

How the results depend on the processing

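Over 17 alternatives the 10 members gave 158 values with the direction and side of the threshold of the full fit, 2 that newly passed, both without cKO 3, and 9 of the opposite sign. Without each library in turn, 0 to 2 members were called higher and 0 lower, and the other alternatives called 0. Opposite signs came in Hsd3b1, Fdxr and Star. Hsd3b1 was at 0.12 with quantile normalisation, 0.0407 centred on reference genes, 0.0099 without mitochondrially encoded genes, 0.0296 with array weights and 0.13 with cKO 1 alone against the controls, and from -0.14 to 0.0518 without each library. Fdxr reached 0.0038 centred on reference genes, and Star ran from -0.0139 without cKO 2 to 1.30 without control 1. The cause was not tested. Cyp17a1 ran from 0.82 without control 3 to 2.46 without control 1, Scarb1 from 0.29 to 0.80 without the same libraries, and Fdx1 from 0.39 without cKO 2 to 1.15 without control 1. Adjusted p-values over all alternatives were 0.121 to 0.587 for Cyp17a1, 0.0988 to 0.487 for Scarb1 and 0.169 to 0.695 for Fdx1.

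Over all genes, 334 were called higher and 312 lower. Without 1 library these were 0 to 307 and 2 to 353, with 0 and 2 without cKO 1 or without control 2 and 1 and 4 without control 1. They were 254 and 577 centred on the median, 270 and 421 with quantile normalisation, 1094 and 308 centred on reference genes, 407 and 280 without mitochondrially encoded genes, 1041 and 743 with array weights, 4 and 24 with no filter, and 22 and 1 for cKO 1 alone against the controls. The filter at 2 FPKM removed Hsd3b6. No paired analysis was possible because no label ties a cKO pool to a control pool. With 3 pools a group, a difference that missed the threshold is not shown to be absent, and the 95% intervals, narrow for Fdxr and Hsd3b1 and wide for Cyp17a1 and Star, give the sizes that remain possible.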

Other observations

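Some genes outside the rule for naming were chosen after their values were seen. Crem, which encodes a cyclic AMP-responsive transcription factor, had 10.5, 15.8 and 8.57 FPKM in cKO 1 to 3, against 17.9, 8.22 and 8.64 FPKM in control 1 to 3, at an adjusted p of 0.943. Cyp19a1, the aromatase gene of granulosa cells, had 5.34, 8.49 and 5.21 FPKM in cKO 1 to 3, against 9.15, 3.98 and 4.80 FPKM in control 1 to 3, at an adjusted p of 0.834. For both, control 1 and cKO 2 were the highest libraries, as they were for Star, Cyp17a1 and Fdx1. Akr1c18, which inactivates progesterone, had 4.12 ± 0.39 FPKM in cKO and 2.44 ± 1.01 FPKM in control (SD, n = 3), at an adjusted p of 0.117. Hsd17b3, the enzyme of testicular testosterone synthesis, was listed at 0.23, 0.24 and 0.21 FPKM in cKO 1 to 3 and at 0.86, 0.86 and 0.04 FPKM in control 1 to 3, under the filter on low values.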
